A study of Mus musculus with 13 samples.

Results

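Mouse orthologues of 10 Alzheimer disease risk genes that act inside or around the endosome, the cytoskeleton and the cell surface were followed across microglia libraries: Bin1, Picalm, Sorl1, Abi3, Clu, Cd2ap, Abca7, Ptk2b, Fermt2 and Rin3. They were found by symbol, all 10 of 10, among the 19737 genes of the deposited expression table, and all 10 were among the 10817 genes tested, those whose mean over the libraries reached 1 FPKM. FPKM is the number of sequenced fragments per kilobase of gene and per unit of library size, so levels can be compared between genes per length. Summed FPKM differed between libraries, from 123352 to 170775, and comparisons between libraries depend on how they are scaled.

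Genome-wide association studies of late-onset Alzheimer disease place many risk variants in or near genes that are active in microglia, the macrophages that live in the brain. A large share of these genes serve the path by which a cell takes in material from its surface, sorts it in endosomes, and sends it back or on to the lysosome. Others regulate actin, integrin adhesion and lipid export, which a microglial cell uses to extend processes, to migrate and to engulf debris.

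RNA depleted of ribosomal RNA was sequenced from microglia in 13 libraries of 4 groups. The controls were wild type (n = 3) and 5xFAD (n = 2), both given the vector AAV PHP.eB-EGFP, an adeno-associated virus whose capsid crosses into the mouse brain and whose cargo is a fluorescent protein. The circRNA group (n = 4) was 5xFAD given AAV PHP.eB with a circular RNA, circPOLR2A, as cargo. The PKR knockout group (n = 4) was 5xFAD labelled as knocked out for PKR, a kinase that binds double-stranded RNA and is the product of Eif2ak2; whether the protein was lost is not shown by these data. The 5xFAD mouse is a model of amyloid deposition whose transgenes are driven by the neuronal Thy1 promoter, so they are expressed in neurons and not by a microglial promoter. All groups but the wild type carry these transgenes. The treatment labels of the circRNA libraries name circPOLR2A(9,10), (9,11), (9,12) and (9,13) for replicates 1 to 4, while the design text names (9,10) for all of them, so it is not settled that they received 1 construct. For PKR knockout no vector is named, and these are the only libraries with library names, so the knockout cannot be told apart from a difference in vector or in the time of preparation. Age, sex, the knockout allele, the way the microglia were isolated, and whether a library holds 1 animal or several are not given in the sources used here. The p-values therefore measure the spread between these libraries.

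The promoter windows of 3 members are shown first, because they belong to the member with the clearest difference between groups (Sorl1), to a member of the same endosomal path that limma did not call in any comparison on the FPKM as deposited (Picalm), and to a member that was higher with PKR knockout than in wild type (Abca7). Each is the 250 bases upstream of the transcription start in RefSeq, build GRCm38.p6, at the gene's annotated end where the table lists more than 1 start, read 5′ to 3′ on the strand of the gene. The windows are chr9:42124298-42124547 on the minus strand for Sorl1, chr7:90129963-90130212 on the plus strand for Picalm and chr10:79996244-79996493 on the plus strand for Abca7. Capitals mark matches to CACGTG, a palindromic E-box, or to GAGGAA, a core bound by PU.1, the lineage factor of microglia. TGANTCA, an AP-1 motif, was searched too, and matches were sought on both strands; no matches overlap one another in these windows.
Sorl1: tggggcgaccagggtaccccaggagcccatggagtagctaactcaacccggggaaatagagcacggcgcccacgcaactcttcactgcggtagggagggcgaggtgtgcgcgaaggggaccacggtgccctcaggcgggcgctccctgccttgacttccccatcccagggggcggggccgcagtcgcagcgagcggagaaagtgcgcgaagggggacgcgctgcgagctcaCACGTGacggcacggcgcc
Picalm: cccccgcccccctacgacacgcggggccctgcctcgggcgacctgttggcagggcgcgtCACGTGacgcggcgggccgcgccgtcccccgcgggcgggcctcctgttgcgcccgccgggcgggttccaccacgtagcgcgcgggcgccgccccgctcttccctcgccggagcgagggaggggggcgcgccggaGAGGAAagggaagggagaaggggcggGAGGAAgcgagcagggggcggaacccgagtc
Abca7: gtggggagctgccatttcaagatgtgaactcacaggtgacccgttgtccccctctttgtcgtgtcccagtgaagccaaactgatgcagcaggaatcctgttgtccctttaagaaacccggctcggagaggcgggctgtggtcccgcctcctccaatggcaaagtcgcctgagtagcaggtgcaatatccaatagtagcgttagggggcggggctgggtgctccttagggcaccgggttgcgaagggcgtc

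The E-box of Sorl1 began 19 bases upstream of the start, and that of Picalm 191 bases upstream. Picalm also held 2 copies of GAGGAA, which began 57 and 31 bases upstream. The Abca7 window held none of the 3 motifs, and neither did the window of a second listed start of Sorl1 (chr9:42077214-42077463). Of the 5 members with a window of 197 to 250 bases in the RefSeq table (Sorl1, Picalm, Abca7, Fermt2 and Rin3), 2 held CACGTG in any of their windows, 1 held GAGGAA and 0 held TGANTCA. Over the 250 bases upstream of all 32851 starts in the table, the shares were 6.021% for CACGTG, 23.25% for GAGGAA and 6.749% for TGANTCA. A match describes the letters of the window and says nothing of binding.

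The members spanned a wide range of abundance. Bin1, which makes a membrane-bending protein of endocytic tubules, was the most abundant at a mean of 90.2 FPKM over the 13 libraries, followed by Abi3 at 62.3, Clu at 58.7, Picalm at 29.6, Ptk2b at 19.9, Rin3 at 12.8, Sorl1 at 10.9, Cd2ap at 7.06, Abca7 at 7.02 and Fermt2 at 4.04. Bin1 exceeded Abi3, Picalm exceeded Ptk2b, Ptk2b exceeded Rin3, and Sorl1 exceeded Cd2ap in 13 of 13 libraries. Clu exceeded Picalm and Abca7 exceeded Fermt2 in 12 of 13, and Rin3 exceeded Sorl1 in 11 of 13. The neighbours that changed places most were Abi3, which exceeded Clu in 8 of 13 libraries, and Cd2ap, which exceeded Abca7 in 7 of 13. Recovered fragments ranged from 586 for Fermt2 in its thinnest library to 31740 for Picalm in its richest, a counting error of at most 4.13%.

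**Figure D1:**
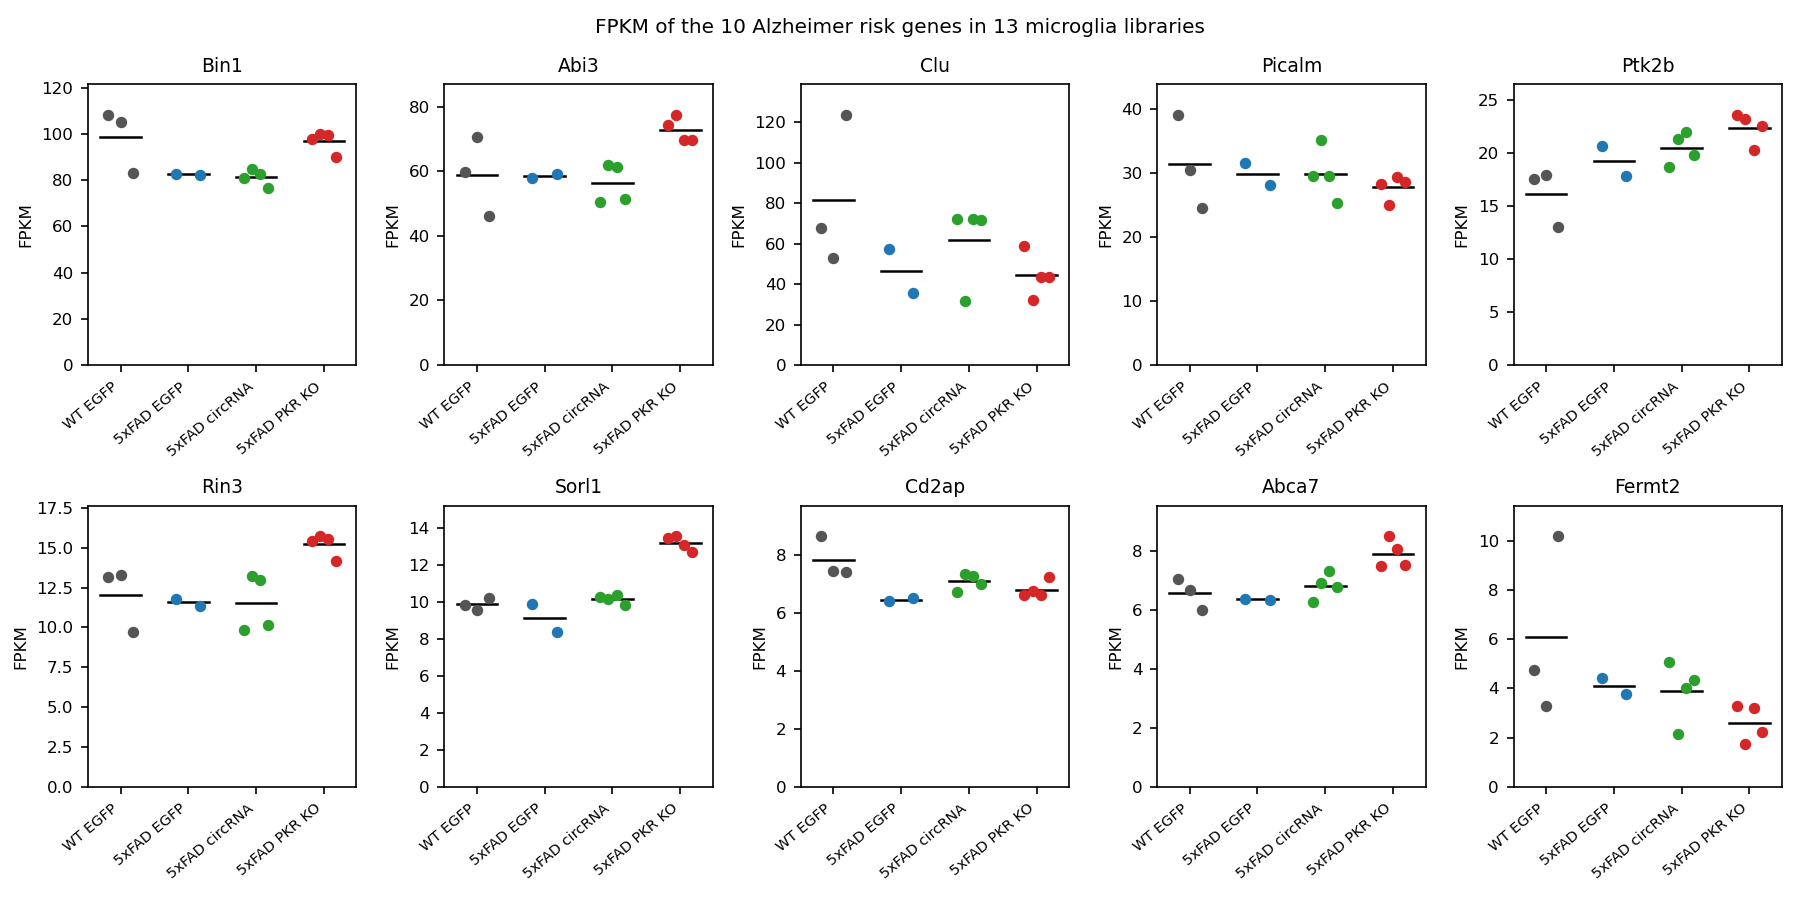
FPKM of the 10 genes (1 panel each, vertical axis from 0) in the 13 libraries by group; dots are libraries and bars are group means. The 4 PKR knockout libraries lie above all others for Sorl1, Rin3 and Abca7, while wild type replicate 3 is the highest dot for Clu (124) and Fermt2 (10.2).

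Depth, recovered from the FPKM steps, was 45.2 to 69.9 M (mega) fragments per library. Eif2ak2 was at 3.31 to 4.61 FPKM in the knockout libraries, 6.49 and 6.59 in 5xFAD EGFP, 7.37 to 8.11 with circRNA and 4.14 to 5.23 in wild type, so RNA of the targeted gene was below that of the other 5xFAD libraries but present, and it overlapped with wild type. In log2(FPKM + 1) the knockout differed by -0.64 from 5xFAD EGFP (limma adjusted p = 0.0644) and by -0.27 from wild type (limma adjusted p = 0.0486). CircRNA differed from the knockout by 0.85 (limma adjusted p = 0.00147). All 10 microglial markers were above 1 FPKM in each library, with a sum of 2750 FPKM in wild type replicate 3 and 3186 to 4753 in the other libraries. Wild type replicate 3 stood apart: its sum of 10 oligodendrocyte markers was 1646 FPKM, against 373 and 412 in the other wild type libraries, and its sum of 10 astrocyte markers was 382 against 112 and 141. The oligodendrocyte sum was 697 and 738 in 5xFAD EGFP, 812, 323, 339 and 839 with circRNA, and 236 to 397 in PKR knockout. The astrocyte sum was 163 and 239 in 5xFAD EGFP, 146 to 278 with circRNA and 153 to 251 in PKR knockout. Gfap, which reactive astrocytes express, had a mean of 19.3 FPKM in wild type and 62.5, 68.9 and 91.1 in 5xFAD EGFP, circRNA and PKR knockout, while the means of all 9 other astrocyte markers were lower in each 5xFAD group than in wild type (Gja1 7.34 and 1.87, Aqp4 7.55 and 3.09 FPKM in wild type and PKR knockout). That direction rests on wild type replicate 3: without it, 4, 3 and 7 of the 9 had lower means in 5xFAD EGFP, circRNA and PKR knockout. Sums of 10 endothelial and mural markers were 107 to 241 FPKM in wild type, 43.2 and 69.3 in 5xFAD EGFP, 61.5 to 119 with circRNA and 59.6 to 97.3 in PKR knockout. Sums of 10 neuron markers were 11.8 to 42.3, 29.5 and 34.6, 9.33 to 28.9, and 12.6 to 22.3 FPKM in the same order. Sums of 6 border macrophage markers were 41.9 to 66.3 FPKM in wild type and at most 28.6 in any 5xFAD library, and 10 lymphocyte and neutrophil markers summed to at most 16.7. In the last list up to 3 of its genes were at 0 in a library; in the other lists none was. In bulk RNA, fewer cells of a type and less RNA per cell cannot be told apart. Results that are called or lost with wild type replicate 3 are given with and without it.

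Sorl1 makes SORLA, a sorting receptor that carries amyloid precursor protein and other cargo from endosomes back to the Golgi and the cell surface with the retromer. It lies on chromosome 9 from 41964720 to 42124297 on the minus strand. Wild type had 9.83, 9.56 and 10.2 FPKM, 5xFAD EGFP 9.89 and 8.36, and circRNA 10.3, 10.2, 10.4 and 9.84. In PKR knockout it was at 13.5, 13.5, 13.1 and 12.7. The knockout libraries were the highest 4 of the 13 and overlapped with no other group, and wild type replicate 3 was within 1 FPKM of its group.

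Sorl1 was 40.5% higher in PKR knockout than in 5xFAD EGFP on the log2(FPKM + 1) scale on which all changes below are given, which is 0.49 in log2 (SE 0.07) at a limma adjusted p of 0.0430. It had the third smallest p of all genes in that comparison, in which 0.0832% of genes were called, and was the 1 member called. That call is not firm: it was lost in 5 of 10 alternative settings and when any 1 of the 6 libraries was left out, with limma adjusted p from 0.0689 to 0.550 and log2 changes from 0.38 (without 5xFAD EGFP replicate 2) to 0.60 (without replicate 1). The other comparisons of Sorl1 with the knockout were firmer. Against wild type the knockout was higher by 0.39 (SE 0.06, limma adjusted p = 0.000707), and circRNA was lower than the knockout by 0.35 (SE 0.06, limma adjusted p = 0.00991). Both passed in all 10 alternative settings and without any single library, although the difference from wild type shrank to 0.17 when libraries were rescaled to the same sum. With circRNA, Sorl1 differed from 5xFAD EGFP by 0.14, with a 95% interval from -0.01 to 0.30 (limma adjusted p = 0.739).

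Sort1, which encodes sortilin and is the nearest abundant relative of Sorl1, did not follow it. It was at 39.4, 37.4 and 32.8 FPKM in wild type, 29.99 and 29.0 in 5xFAD EGFP, 31.7, 32.5, 33.4 and 28.4 with circRNA, and 26.6, 25.8, 26.5 and 26.9 in PKR knockout. Sort1 fell by 0.45 in PKR knockout against wild type (SE 0.08, limma adjusted p = 0.00125), and the knockout libraries were the lowest 4. That call passed in all 10 alternative settings and without any single library. Within each library the ratio of Sorl1 to Sort1 was 0.272 ± 0.034 (SD, n = 3) in wild type, 0.309 ± 0.030 (SD, n = 2) in 5xFAD EGFP, 0.324 ± 0.016 (SD, n = 4) with circRNA and 0.499 ± 0.023 (SD, n = 4) in PKR knockout. A ratio within a library does not depend on scaling between libraries. The knockout ratios, 0.472 to 0.526, lay above the highest ratio of any other group, 0.346. The other members of the receptor family were scarce, with means of 1.03 FPKM for Sorcs2, 0.369 for Sorcs1 and 0.153 for Sorcs3.

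**Figure D2:**
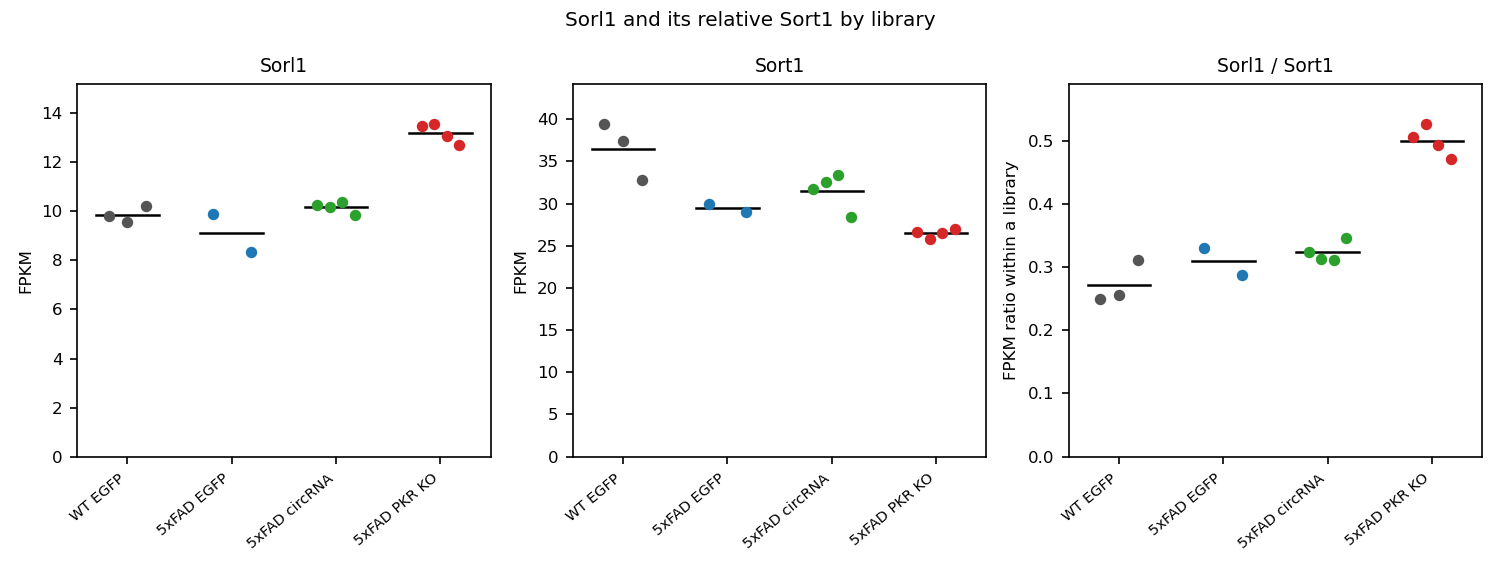
FPKM of Sorl1 (left) and of its relative Sort1 (middle), and their ratio within each library (right), by group; dots are libraries, bars are group means, and each axis starts at 0. In PKR knockout Sorl1 is at 12.7 to 13.5 FPKM and Sort1 at 25.8 to 26.9 FPKM, so the ratio, 0.472 to 0.526, is above that of the 9 other libraries.

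Of 28 retromer and endosomal sorting genes, the machinery that SORLA works with, 0 were called in PKR knockout against 5xFAD EGFP by limma (2 at an unadjusted p under 0.05) and 0 between circRNA and PKR knockout (10 unadjusted). Of all genes, 0.0832% and 6.19% were called in these comparisons, and 13% and 25.5% had an unadjusted p under 0.05. Against wild type, 8 rose and 2 fell in PKR knockout and 9 rose and 0 fell with circRNA, in comparisons that called 37% and 25.8% of all genes. These directions depend on scaling: after rescaling to the same sum 2 were higher and 8 lower in PKR knockout, and 2 higher and 10 lower with circRNA. Rescaling called 6595 and 5676 of all 10817 genes in these comparisons, and 17.8% and 17.5% of the called genes were higher. Gga2, a clathrin adaptor of the Golgi, rose in each 5xFAD group; wild type had 1.31 ± 0.19 FPKM (SD, n = 3) and PKR knockout 2.43 ± 0.15 (SD, n = 4) (log2 change 0.57, limma adjusted p = 6.82e-05). Its call in 5xFAD EGFP was lost without 5xFAD EGFP replicate 1 (limma adjusted p = 0.0799) and with the pair of groups fitted alone (limma adjusted p = 0.101). Washc2, a subunit of the actin-nucleating WASH complex on endosomes, rose in PKR knockout against wild type from 10.6 ± 1.65 to 15.7 ± 1.19 FPKM (log2 change 0.54, limma adjusted p = 0.000884). The median log2 change of the list against wild type was 0.12 in PKR knockout, beside -0.05 for all genes.

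Rin3, a guanine nucleotide exchange factor that activates RAB5 on early endosomes, lies on chromosome 12 from 102283048 to 102390855. Its FPKM was 13.2, 13.3 and 9.73 in wild type, 11.8 and 11.4 in 5xFAD EGFP, 9.83, 13.2, 13.0 and 10.2 with circRNA, and 15.5, 15.7, 15.5 and 14.2 in PKR knockout. As with Sorl1, every knockout library was above every other library. The test did not call it: the log2 difference of the knockout was 0.37 from 5xFAD EGFP (SE 0.14, limma adjusted p = 0.285) and 0.33 from wild type (SE 0.12, limma adjusted p = 0.0526), and circRNA differed from the knockout by -0.38 (SE 0.11, limma adjusted p = 0.0647). In the same order these passed in 2, 2 and 5 of 10 alternative settings. Wild type replicate 3 was low, and without it the difference from wild type was 0.19 (limma adjusted p = 0.205), while leaving out wild type replicate 2 gave 0.40, which passed (limma adjusted p = 0.0414).

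Abi3, an adaptor of the WAVE complex that drives branched actin, lies on chromosome 11 from 95830074 to 95842476 on the minus strand. It was at 59.7, 70.7 and 46.2 FPKM in wild type, 57.8 and 59.1 in 5xFAD EGFP, 50.5, 61.9, 61.2 and 51.4 with circRNA, and 74.4, 77.5, 69.6 and 69.7 in PKR knockout. The knockout libraries exceeded every other 5xFAD library and overlapped with wild type, and no comparison passed over all libraries (0.31 from 5xFAD EGFP, limma adjusted p = 0.404; -0.37 for circRNA against the knockout, limma adjusted p = 0.0854, which passed in 3 of 10 alternative settings). From wild type the knockout differed by 0.32 (limma adjusted p = 0.0742), which passed in 1 of 10 alternative settings. It was 0.16 without wild type replicate 3 (limma adjusted p = 0.281). Leaving out wild type replicate 2 gave 0.46, which passed (limma adjusted p = 0.0169). Exons of Zfp652, Phospho1 and Gngt2 on the other strand share 2913, 1708 and 234 of the 4153 exon bases annotated for Abi3. The libraries were stranded but the strand setting of the counting is not given in the sources used here, so the Abi3 value is uncertain.

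Abca7, a lipid transporter of the same family as the cholesterol exporter Abca1 and a gene needed for phagocytosis, lies on chromosome 10 from 79996494 to 80015572. Its FPKM was 7.03, 6.67 and 6.01 in wild type, 6.38 and 6.33 in 5xFAD EGFP, 6.25, 6.91, 7.31 and 6.76 with circRNA, and 7.48, 8.505, 8.07 and 7.52 in PKR knockout. All knockout libraries were above all others, by a small margin over the highest circRNA library. Abca7 rose by 17.5% in PKR knockout against wild type, which is 0.23 in log2 (SE 0.07) at a limma adjusted p of 0.0221. The call was lost after rescaling to the same sum (0.03, limma adjusted p = 0.732), with the cell type covariate described below (0.15, limma adjusted p = 0.154), with the pair of groups fitted alone (limma adjusted p = 0.0582), without wild type replicate 3 (0.18, limma adjusted p = 0.0784) and without PKR knockout replicate 2 (0.20, limma adjusted p = 0.0669). From 5xFAD EGFP it differed by 0.27 (SE 0.08, limma adjusted p = 0.216).

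Bin1 was at 108, 105 and 82.9 FPKM in wild type, 82.8 and 82.4 in 5xFAD EGFP, 80.8, 84.9, 82.5 and 76.5 with circRNA, and 97.7, 100.01, 99.4 and 90.0 in PKR knockout. Wild type replicates 1 and 2 were the highest libraries, the knockout came next, and wild type replicate 3 was level with the EGFP and circRNA libraries of 5xFAD. With all libraries, Bin1 passed in no comparison, with -0.25 for 5xFAD EGFP against wild type (SE 0.12, limma adjusted p = 0.231) and -0.27 for circRNA against wild type (SE 0.10, limma adjusted p = 0.0719). Without wild type replicate 3 these became -0.37 (limma adjusted p = 0.0233) and -0.39 (limma adjusted p = 0.00526), both past the threshold. With all libraries the first passed in 3 of 10 alternative settings and the second in 6, reaching -0.57 and -0.71 (limma adjusted p = 0.00289 and 0.000101). Its difference between PKR knockout and wild type was -0.02, with a 95% interval from -0.24 to 0.20, but -0.25 after rescaling to the same sum (limma adjusted p = 0.0421) and -0.52 with quantile normalization (limma adjusted p = 0.000733). Its relative Bin2 kept a similar ratio in all groups: Bin1 was 1.41 to 1.74 times Bin2 in the 13 libraries. For Bin3 the ratio shifted, since Bin1 was 14.5 ± 1.2 times Bin3 (SD, n = 3) in wild type and 9.44, 8.70 and 9.94 times Bin3 on average in 5xFAD EGFP, circRNA and PKR knockout. Bin3 rose against wild type with circRNA (0.41, limma adjusted p = 0.00933) and in PKR knockout (0.47, limma adjusted p = 0.00338). The first was lost after rescaling to the same sum (0.15, limma adjusted p = 0.192), and the second passed in all 10 alternative settings.

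Between PKR knockout and 5xFAD EGFP, 6 members lay apart with the knockout higher (Bin1, Sorl1, Abi3, Cd2ap, Abca7 and Rin3) and 1 with it lower (Fermt2), while 34.8% of all genes lay apart, 17.7% higher and 17% lower. Between circRNA and PKR knockout, 5 members lay apart, all lower with circRNA (Bin1, Sorl1, Abi3, Abca7 and Rin3), beside 19.5% of all genes, 4.44% lower with circRNA. In that comparison 6.19% of genes were called and 1 of the 10 members, Sorl1. Both comparisons share the knockout libraries and are not independent of each other. At an unadjusted p under 0.05 the first had 3 members beside 13% of all genes, and the second had 5 beside 25.5%. In the second, 4.28% of all genes were called higher and 1.91% lower with circRNA, and 15.1% lay apart with circRNA higher. That direction of all genes depends on scaling. Of the genes called in it, 69.1% were higher with circRNA as deposited, 27.6% with median-ratio scaling and 32.1% with quantile normalization. The shares that lay apart are for FPKM as deposited. The median log2 change of the members in PKR knockout against 5xFAD EGFP was 0.22, beside 0.01 for all genes.

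Oligodendrocyte markers were lower in PKR knockout than in 5xFAD EGFP, as given above, and so were the means of all 9 astrocyte markers other than Gfap. With group means subtracted, Pearson's r with the oligodendrocyte list over the 13 libraries, which share groups, was -0.96 for Rin3, -0.91 for Abi3, -0.83 for Bin1, -0.78 for Abca7 and 0.06 for Sorl1. With the microglial list it was 0.92, 0.87, 0.87, 0.75 and -0.0020 in the same order. Among the alternatives, 1 took as a covariate the mean log2 level of the neuron, astrocyte, oligodendrocyte, and endothelial and mural markers. With it the difference between PKR knockout and 5xFAD EGFP was 0.51 for Sorl1 (limma adjusted p = 0.0442), 0.21 for Abca7 (limma adjusted p = 0.230), 0.21 for Rin3 (limma adjusted p = 0.353), 0.14 for Abi3 (limma adjusted p = 0.603) and 0.12 for Bin1 (limma adjusted p = 0.636). The part that these cell types have in the differences was not tested.

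**Figure D3:**
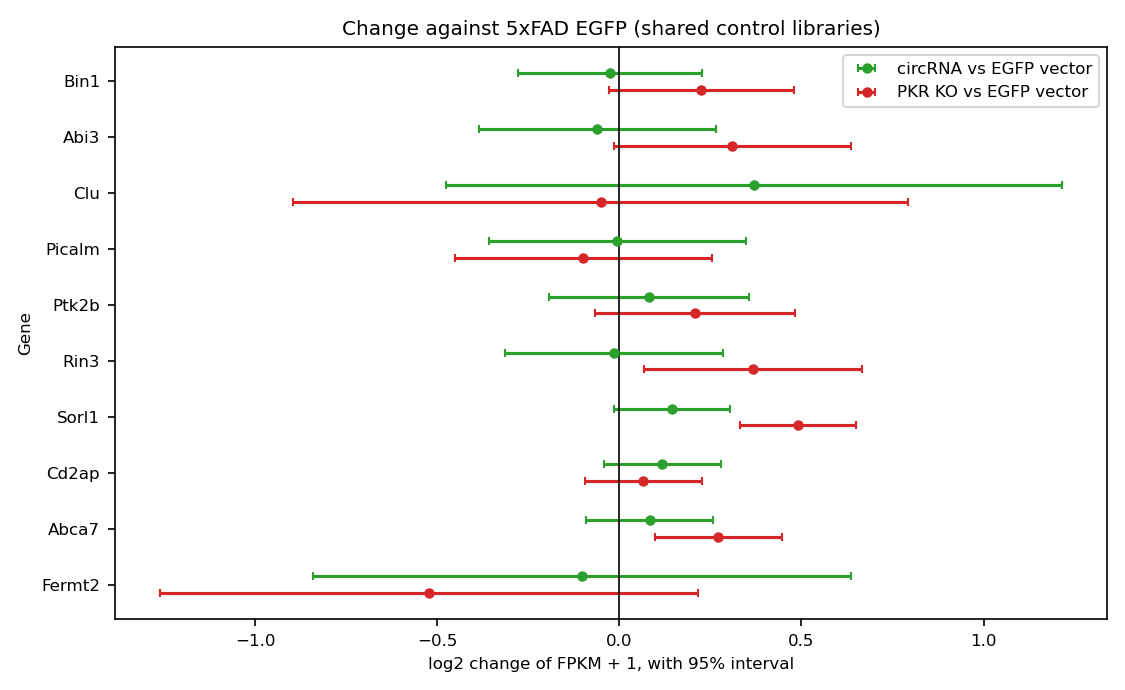
Log2 change of FPKM + 1 (horizontal axis) of the 10 genes against 5xFAD EGFP for circRNA (green) and PKR knockout (red), with bars for the 95% interval from limma; both use the same 2 EGFP libraries. For PKR knockout the intervals of Sorl1, Rin3 and Abca7 lie above 0 and Sorl1 alone passed the adjusted threshold, while every circRNA interval includes 0.

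Ptk2b, the calcium-responsive tyrosine kinase PYK2 that signals from integrins, lies on chromosome 14 from 66153257 to 66281052 on the minus strand. Its FPKM was 17.5, 17.9 and 13.0 in wild type, 20.7 and 17.8 in 5xFAD EGFP, 18.7, 21.3, 22.0 and 19.8 with circRNA, and 23.6, 23.2, 20.2 and 22.5 in PKR knockout. The circRNA and knockout libraries were all above wild type, and the 5xFAD groups overlapped with each other. Ptk2b rose by 0.46 in PKR knockout against wild type (SE 0.11, limma adjusted p = 0.00734), a call kept in 9 of 10 alternative settings and without any single library; rescaling to the same sum gave 0.24 (limma adjusted p = 0.0580). Without wild type replicate 3, which had the lowest microglial marker sum, the change was 0.32 (limma adjusted p = 0.0199). With circRNA it rose by 0.33 (SE 0.11, limma adjusted p = 0.0453), the 1 member called in a comparison that called 25.8% of genes, 17.8% higher and 8.05% lower. That call was lost in 6 of 10 alternative settings, without wild type replicate 3 (0.19, limma adjusted p = 0.158) and without circRNA replicate 2, 3 or 4 (limma adjusted p = 0.103, 0.1003 and 0.0606). Ptk2, which encodes the sister kinase FAK, was far lower at 1.98 FPKM on average.

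Of 33 tested genes for integrin adhesion and the WAVE actin machinery, 8 rose and 6 fell in PKR knockout against wild type and 10 rose and 3 fell with circRNA. After rescaling to the same sum 6 were higher and 12 lower in PKR knockout, and 2 higher and 11 lower with circRNA. In 5xFAD EGFP against wild type 2 rose and 2 fell, which became 1 higher and 7 lower after rescaling. On FPKM as deposited the shares called were 42.4%, 39.4% and 12.1%, beside 37%, 25.8% and 14% of all genes. After rescaling 6595, 5676 and 3709 of all 10817 genes were called, and 17.8%, 17.5% and 19.1% of the called genes were higher. Tln2, a talin that links integrins to actin, was at 6.61 ± 0.28 FPKM (SD, n = 3) in wild type; it rose to 8.95 ± 0.53 (SD, n = 2) in 5xFAD EGFP (log2 change 0.39, limma adjusted p = 0.0153) and 10.2 ± 0.88 (SD, n = 4) in PKR knockout (0.56, limma adjusted p = 0.000177). The kinase gene Fyn rose in 5xFAD EGFP by 0.73 (limma adjusted p = 0.00767) and the adhesion scaffold gene Pxn fell by 0.52 (limma adjusted p = 0.0118). In 5xFAD EGFP, Tln2 passed in 7 of 10 alternative settings (0.23 after rescaling), Fyn and Pxn in 9 each, and all 3 were lost without 5xFAD EGFP replicate 1 or 2. Parvb, an adaptor of integrin-linked kinase, was the 1 gene of the list called between circRNA and PKR knockout, at 7.10 ± 0.62 and 8.84 ± 0.52 FPKM (log2 change -0.28, limma adjusted p = 0.0416); the call was lost in 7 of the 8 fits that left out 1 of these libraries.

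Cd2ap, a scaffold that ties receptors to actin and to endocytosis, lies on chromosome 17 from 42792951 to 42876665 on the minus strand. Its FPKM was 8.64, 7.43 and 7.41 in wild type, 6.38 and 6.50 in 5xFAD EGFP, 6.71, 7.34, 7.25 and 7.0004 with circRNA, and 6.61, 6.75, 6.60 and 7.22 in PKR knockout. Every wild type library was above every 5xFAD library. Cd2ap fell by 0.18 in PKR knockout against wild type (SE 0.06, limma adjusted p = 0.0482), a call lost in 5 of 10 alternative settings and without wild type replicate 1 (-0.11, limma adjusted p = 0.173) or PKR knockout replicate 1, 2 or 3. In 5xFAD EGFP the log2 difference from wild type was -0.24 (SE 0.08, limma adjusted p = 0.0558), the 1 member at an unadjusted p under 0.05. It passed without wild type replicate 3 (-0.28, limma adjusted p = 0.0358) and in 6 of 10 alternative settings, down to an adjusted p of 0.00221 with limma. With circRNA the difference was -0.13 (limma adjusted p = 0.184), which passed in 3 of 10. Border macrophage sums were also higher in every wild type library than in any 5xFAD library, and endothelial and mural sums were mostly higher, as given above; their part in the result was not tested. Over the 13 libraries, which share groups, Cd2ap had a Pearson's r of 0.66 with the endothelial and mural list and 0.65 with the border macrophage list, and -0.03 and 0.02 after group means were subtracted. With the cell type covariate Cd2ap differed from wild type by -0.22 in PKR knockout (limma adjusted p = 0.0501) and -0.25 in 5xFAD EGFP (limma adjusted p = 0.0338). Between 5xFAD EGFP and wild type limma called 0 of the 10 members and 14% of genes (7.65% higher and 6.35% lower), with 26.2% of genes at an unadjusted p under 0.05. In that comparison 2 members lay apart, Bin1 and Cd2ap, both lower, beside 37.6% of all genes (16.5% higher and 21.1% lower).

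Sh3kbp1, which encodes CIN85, the closest relative of CD2AP, rose where Cd2ap did not. It was at 7.36, 6.98 and 5.67 FPKM in wild type and 8.14 to 11.3 in the 5xFAD libraries, and rose against wild type with circRNA (0.43, limma adjusted p = 0.00920) and in PKR knockout (0.44, limma adjusted p = 0.00603). Both calls were lost after rescaling to the same sum (0.17 and 0.23, limma adjusted p = 0.176 and 0.0656). Within libraries, Cd2ap was 1.18 ± 0.12 times Sh3kbp1 in wild type (SD, n = 3) and 0.764 ± 0.029 (SD, n = 2), 0.764 ± 0.041 (SD, n = 4) and 0.729 ± 0.065 (SD, n = 4) times in 5xFAD EGFP, circRNA and PKR knockout. No wild type ratio, the lowest being 1.07, overlapped with a 5xFAD ratio, the highest being 0.814. Ratios of Rin3 to its relative Rin2 were also higher in wild type. Rin2 rose against wild type in all 3 comparisons, by 0.45 in 5xFAD EGFP (limma adjusted p = 0.0436), 0.58 with circRNA (limma adjusted p = 0.00247) and 0.63 in PKR knockout (limma adjusted p = 0.00106). The circRNA and PKR knockout calls passed in all 10 alternative settings, while the 5xFAD EGFP call was lost in 5 of them, after rescaling among others, and without wild type replicate 1 or 3 or either 5xFAD EGFP library. Rin3 was 0.956 to 1.23 times Rin2 in wild type and 0.584 to 0.911 times in the 5xFAD libraries. Of the 15 relatives tested, limma called 1 higher and 0 lower in 5xFAD EGFP, 3 and 0 with circRNA, and 3 and 1 in PKR knockout against wild type. These are 6.67%, 20% and 26.7% of them, beside 14%, 25.8% and 37% of all genes. After rescaling the counts were 0 and 3, 1 and 4, and 2 and 6. Rescaling called 3709, 5676 and 6595 of all 10817 genes, and 19.1%, 17.5% and 17.8% of the called genes were higher.

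Picalm, the clathrin assembly protein CALM that sizes endocytic vesicles, lies on chromosome 7 from 90130213 to 90213465. Its FPKM was 39.1, 30.5 and 24.6 in wild type, 31.6 and 28.2 in 5xFAD EGFP, 29.6, 35.2, 29.6 and 25.3 with circRNA, and 28.3, 25.0, 29.4 and 28.6 in PKR knockout. The widest spread was inside wild type, and all groups overlapped. The log2 difference from wild type was -0.05 in 5xFAD EGFP (95% interval -0.42 to 0.32), -0.05 with circRNA (-0.37 to 0.26) and -0.15 in PKR knockout (-0.46 to 0.16). With libraries rescaled it was called in PKR knockout (-0.37, limma adjusted p = 0.0242) and with circRNA (-0.34, limma adjusted p = 0.0436), and quantile normalization gave a call in PKR knockout (-0.40, limma adjusted p = 0.0180).

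Among 35 tested genes of clathrin endocytosis and RAB5, 2 rose and 0 fell in 5xFAD EGFP against wild type, 7 rose and 2 fell with circRNA, and 5 rose and 3 fell in PKR knockout. The shares called were 5.71%, 25.7% and 22.9%, beside 14%, 25.8% and 37% of all genes. With libraries rescaled to the same sum these were 2 higher and 9 lower, 2 higher and 15 lower, and 2 higher and 14 lower. Of all 10817 genes, 3709, 5676 and 6595 were then called, and 19.1%, 17.5% and 17.8% of the called genes were higher. Clta, a clathrin light chain, was at 58.2 ± 12.9 FPKM (SD, n = 3) in wild type and rose to 92.0 ± 3.4 (SD, n = 2) in 5xFAD EGFP (log2 change 0.68, limma adjusted p = 0.0314) and 117 ± 18.4 (SD, n = 4) with circRNA (1.00, limma adjusted p = 0.000584); the first call was lost without 5xFAD EGFP replicate 1 or 2. Synj2, a phosphoinositide phosphatase that helps to uncoat vesicles, rose from 3.37 ± 1.03 to 6.84 ± 0.20 FPKM in 5xFAD EGFP (0.87, limma adjusted p = 0.00342). With the pair of groups fitted alone the Synj2 call was lost (limma adjusted p = 0.0637). The Clta call in 5xFAD EGFP was lost there too, and with the replicate number as a block. Epn2, an epsin, fell in PKR knockout from 9.43 ± 2.75 to 4.18 ± 0.79 FPKM (-0.99, limma adjusted p = 0.00101). Between PKR knockout and 5xFAD EGFP limma called 0 genes of the list, with 1 at an unadjusted p under 0.05.

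Clu encodes clusterin, a secreted chaperone that binds amyloid and lipids and is made in large amount by astrocytes. It lies on chromosome 14 from 65968483 to 65981547. Its FPKM was 67.8, 52.9 and 124 in wild type, 57.4 and 35.5 in 5xFAD EGFP, 72.2, 31.6, 72.4 and 71.5 with circRNA, and 58.9, 32.3, 43.5 and 43.4 in PKR knockout. The groups overlapped and the spread inside a group was wide, with a coefficient of variation of 24.6% to 45.8%. No comparison passed over all libraries: the largest log2 difference was -0.80 in PKR knockout against wild type (SE 0.34, limma adjusted p = 0.0871), which passed in 3 of 10 alternative settings. It was -0.45 without wild type replicate 3 (limma adjusted p = 0.315). Leaving out wild type replicate 2 gave -1.06, which passed (limma adjusted p = 0.0436).

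Fermt2 encodes kindlin-2, which activates integrins together with talin, and lies on chromosome 14 from 45458795 to 45530118 on the minus strand. It was at 4.75, 3.29 and 10.2 FPKM in wild type, 4.43 and 3.79 in 5xFAD EGFP, 5.09, 2.14, 4.00 and 4.33 with circRNA, and 3.29, 1.74, 3.20 and 2.22 in PKR knockout. The knockout libraries were below both EGFP libraries, and the highest of them was level with the lowest wild type library. Fermt2 fell by 0.88 in PKR knockout against wild type (SE 0.30, limma adjusted p = 0.0372). The call was lost in 4 of 10 alternative settings (limma adjusted p = 0.0580 to 0.144). Without wild type replicate 3 the difference was -0.48 (limma adjusted p = 0.1497), and the call was also lost without wild type replicate 1 and without PKR knockout replicate 2 or 4 (limma adjusted p = 0.0610, 0.0975 and 0.0800). Fermt3, the kindlin of blood cells, was at 22.8 to 34.3 FPKM, and Fermt1, the kindlin of epithelia, was at a mean of 0.00385 FPKM. Fermt2 was thus 0.0566 to 0.448 times Fermt3.

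Clu and Fermt2 shared most of their extremes within groups with the astrocyte marker sum. Inside wild type the highest library of both genes was replicate 3, which had the highest astrocyte sum, inside 5xFAD EGFP it was replicate 1 for all 3 quantities, and inside PKR knockout the highest was replicate 1 and the lowest replicate 2 for all 3. In the circRNA group the lowest library of all 3 was replicate 2, but the highest was replicate 1 for the sum (278) and Fermt2 and replicate 3 for Clu. Libraries between the extremes could differ in order: in PKR knockout the sum was 171 in replicate 3 and 204 in replicate 4, and Fermt2 was at 3.20 and 2.22. With the cell type covariate the difference of PKR knockout from wild type was -0.20 for Fermt2 (limma adjusted p = 0.144) and -0.05 for Clu (limma adjusted p = 0.842), against -0.88 and -0.80 without it. Other lists moved with them too. With group means subtracted, Pearson's r over the 13 libraries was 0.94 for Fermt2 and 0.93 for Clu with the astrocyte list, 0.89 and 0.88 with the neuron list, 0.88 and 0.79 with the oligodendrocyte list, and 0.77 and 0.81 with the endothelial and mural list, and -0.74 and -0.61 with the microglial list; the points share groups and wild type replicate 3 stands apart among them. How much of their RNA came from microglia was not tested.

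**Figure D4:**
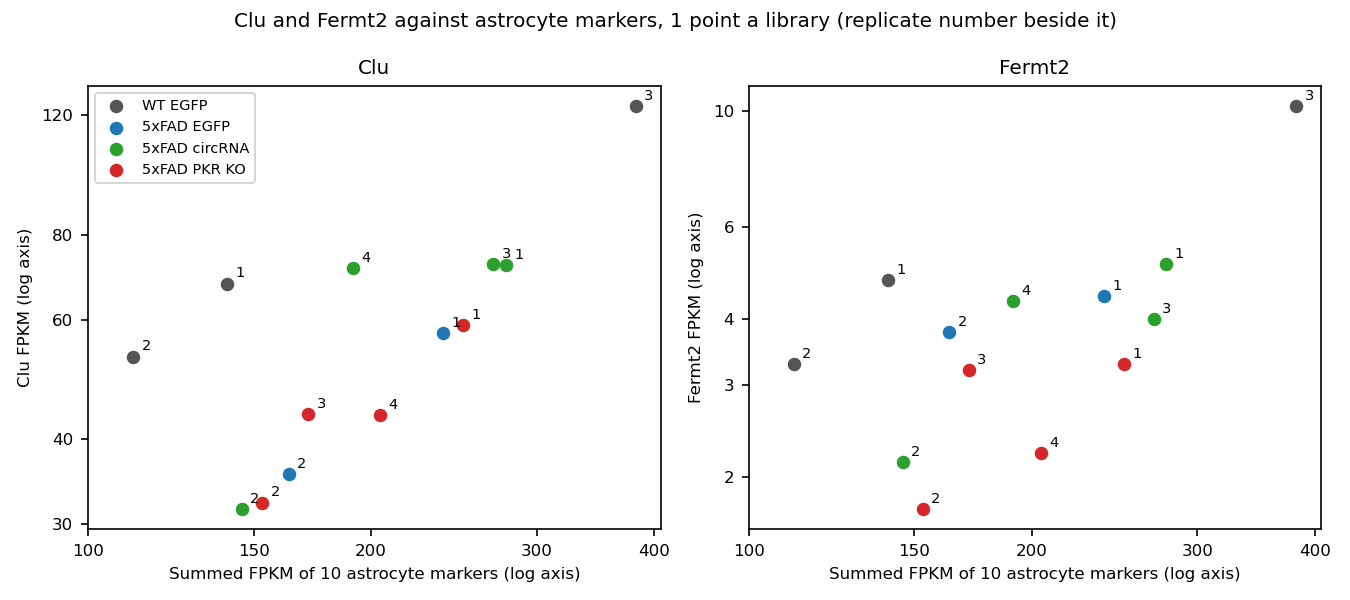
FPKM of Clu (left) and Fermt2 (right) against the summed FPKM of 10 astrocyte markers, both axes logarithmic; each point is a library with its replicate number, coloured by group. Wild type replicate 3, at a sum of 382, has the highest Clu and Fermt2, and circRNA replicate 2 and PKR knockout replicate 2 lie at the lower left for both genes.

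In PKR knockout against wild type, 5 of the 10 members were called, with Sorl1, Ptk2b and Abca7 higher and Fermt2 and Cd2ap lower, in a comparison that called 37% of all genes, 17.5% higher and 19.4% lower. With libraries rescaled to the same sum 6 were called, Sorl1 higher and Bin1, Picalm, Clu, Cd2ap and Fermt2 lower. That setting called 6595 of the 10817 genes tested, and 17.8% of the genes it called were higher. Members called were 3 without wild type replicate 1 or 3, 8 without wild type replicate 2 and 2 without PKR knockout replicate 2. Those fits called 3279, 3784, 3846 and 3104 of all genes in the same order. At an unadjusted p under 0.05 there were 8 members beside 46.7% of genes. The members that lay apart were Sorl1, Abca7, Ptk2b and Rin3 above wild type and Cd2ap below, 5 of 10 beside 40.9% of all genes, 19.8% above and 21.1% below. Between circRNA and wild type 2 members lay apart, Ptk2b higher and Cd2ap lower, beside 28.2% (20.2% higher and 8% lower), and 2 passed an unadjusted p under 0.05 beside 36.7%. The comparisons against wild type share its 3 libraries, and those against 5xFAD EGFP share its 2.

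Between circRNA and 5xFAD EGFP limma called 0 of the 10 members, with 0 at an unadjusted p under 0.05, and it called 0% of all genes (4.83% at an unadjusted p under 0.05). Cd2ap was the 1 member that lay apart, higher with circRNA, beside 19.3% of all genes (16.6% higher and 2.65% lower). The 95% intervals of the log2 difference ran from -0.04 to 0.28 for Cd2ap, -0.09 to 0.26 for Abca7, -0.28 to 0.23 for Bin1, -0.31 to 0.29 for Rin3, -0.19 to 0.36 for Ptk2b, -0.39 to 0.26 for Abi3 and -0.36 to 0.35 for Picalm. For these genes a change of 1.5-fold or more in FPKM + 1 lay outside the interval. The intervals of Fermt2 (-0.84 to 0.64) and Clu (-0.48 to 1.22) left room for larger ones.

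**Figure D5:**
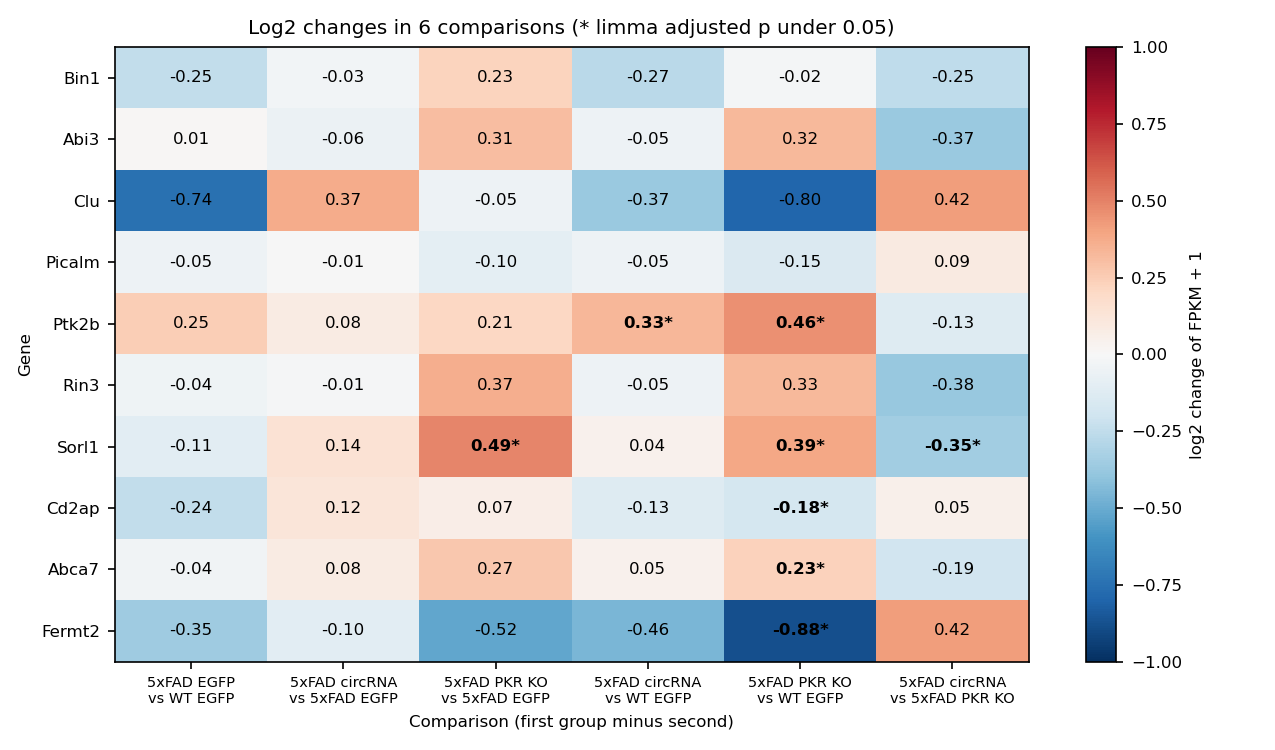
Log2 change of FPKM + 1 of the 10 genes (vertical axis) in the 6 comparisons (horizontal axis, first group minus second), with the value printed in each cell, red for higher and blue for lower; an asterisk marks a limma adjusted p under 0.05. Sorl1 carries an asterisk in the 3 comparisons that hold PKR knockout, with values of 0.49, 0.39 and -0.35.

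A list of 51 other Alzheimer risk genes in the table, 41 of them tested, gives the setting for these 10. In 5xFAD EGFP against wild type 8 rose and 3 fell, or 26.8% of those tested beside 14% of all genes, while limma called 0 of the 10 members. After rescaling to the same sum 8 of the list were higher and 10 lower, and 3 members were called lower (Bin1, Sorl1 and Cd2ap). That setting called 3709 of the 10817 genes tested, and 19.1% of the genes it called were higher. Apoe, the lipid carrier with the strongest common risk allele, rose by 2.51 in log2 (limma adjusted p = 6.71e-06). Treml2, a receptor in the TREM gene cluster, rose by 1.13 (limma adjusted p = 0.000106), Adamts1, a secreted protease, by 2.32 (limma adjusted p = 0.000136), and Plekha1, a phosphoinositide-binding adaptor, by 0.74 (limma adjusted p = 0.000269). The 10 members had log2 differences from -0.74 (Clu) to 0.25 (Ptk2b) in the same comparison, and without wild type replicate 3 these 2 were -0.40 and 0.11. Between circRNA and PKR knockout, Tmem106b, a lysosomal membrane protein, was the 1 gene of the list called, at 10.5 ± 0.54 and 7.99 ± 0.78 FPKM (0.35, limma adjusted p = 0.0251), a call lost in 5 of the 8 fits that left out 1 of these libraries.

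The genes most like each member over the 13 libraries were found by Pearson's r of log2(FPKM + 1), a description over libraries that share groups and depth. Abi3 was most like Rin3, another member, at 0.952. For Sorl1 they were Ubr4 (0.9003), Gse1 (0.898) and Rbm28 (0.885), the lowest top value of the 10. Fermt2 was most like Acsl3 (0.985) and Clu most like Hk1 (0.976), Ntrk2 (0.967) and Scara3 (0.964). Ptk2b was most like Pold4 (0.982), Rin3 like Uvrag (0.969), Bin1 like Rhoh (0.955), Abca7 like Slc17a9 (0.948), Picalm like Mapk1ip1l (0.946) and Cd2ap like Atf7ip (0.930).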

How the data were processed

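The authors deposited 1 table of FPKM with 19737 genes and 13 columns, 1 for each library and none pooled. Per the submitters' processing notes, Bowtie2 2.3.5, HISAT2 2.1.0 and featureCounts 1.5.1 were used with mm10, with no role or order stated. Per the labels' protocols, RNA was extracted with TRIzol, depleted with RiboMinus and made into stranded libraries. Because FPKM is relative to the library total, abundant genes that change can shift others.

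Depth was recovered from the steps of values under 0.3 FPKM with GENCODE M21 exon lengths (build GRCm38), which 19394 genes had. Between 90.8% and 92.4% of these values were whole fragments within 0.02. Counting error is the only error this depth covers. The strand setting of the counting is not given in the sources used here. Tests were run in R 4.3.3 with limma 3.58.1. The scale was log2(FPKM + 1), which understates changes of low genes. The model had a mean for each of 4 groups over all libraries and eBayes with a trend, over the 10817 genes whose mean reached 1 FPKM. P-values were adjusted by Benjamini-Hochberg in each of 6 comparisons, at a threshold of 0.05. The pipeline was tested on simulated data. All members are named; from other lists the genes with the smallest adjusted p in a comparison (at most 4) could be named, and the 3 most alike by r. The 10 alternatives (pseudocount 0.1, no filter, 3 scalings, the pair of groups alone, library weights, no trend, the replicate number as a block, and a cell type covariate) and leaving out each library were run. The members and lists were chosen with earlier results of these data known.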

Additional observations from a re-analysis of the deposited data

Results flagged for a closer look

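Clu in circRNA replicate 2 was at 31.6 FPKM, while the other 3 libraries of the group were at 71.5 to 72.4 FPKM. Its gap to the nearest of them was 0.979 of the range of the group, past the 95% limit of Dixon's test. Over the 10 genes, 20 groups of 4 were examined and this was the 1 such library, while chance alone gives about 1 in 20. This library also had the lowest astrocyte marker sum of its group, 146 FPKM against 191 to 278, and the part of that in the Clu value was not tested. Without it, the Clu difference between circRNA and PKR knockout was 0.71 (limma adjusted p = 0.133) instead of 0.42.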

How the results depend on the processing

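Calls against wild type depend on scaling between libraries. Rescaling to the same sum moved the median of all genes to -0.17 for 5xFAD EGFP against wild type, -0.20 for circRNA against wild type and -0.24 for PKR knockout against wild type, from -0.03, 0.02 and -0.05. The comparisons with 5xFAD EGFP rest on 2 libraries, and the circRNA comparison with it called 0 genes of the table with limma. Depth was high enough that counting error of the members was at most 4.13%.

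Over all libraries limma called 0 of the members in 5xFAD EGFP against wild type, 0 of the members in circRNA against 5xFAD EGFP, 1 of the members in PKR knockout against 5xFAD EGFP, 1 of the members in circRNA against wild type, 5 of the members in PKR knockout against wild type and 1 of the members in circRNA against PKR knockout. Of the 10817 genes tested it called 1514, 0, 9, 2796, 3997 and 670 in the same order. With the pair of groups fitted alone the count of members called was 2 for PKR knockout against 5xFAD EGFP, 0 for circRNA against wild type, 2 for PKR knockout against wild type and 3 for circRNA against PKR knockout. These fits called 577, 1725, 3215 and 893 of all genes in the same order. With library weights the count of members called was 2 for 5xFAD EGFP against wild type, 3 for PKR knockout against 5xFAD EGFP and 6 for circRNA against PKR knockout. All genes called with weights numbered 2238, 822 and 3161. With the cell type covariate the count of members called was 2 for 5xFAD EGFP against wild type, 2 for circRNA against wild type and 2 for PKR knockout against wild type. Beside these, 2545, 3285 and 3555 of all genes were called. With median-ratio scaling the count of members called was 1 for 5xFAD EGFP against wild type, 3 for circRNA against wild type and 5 for circRNA against PKR knockout. Genes called under that scaling numbered 1894, 3279 and 941. With no filter the count of members called was 1 for 5xFAD EGFP against wild type, 0 for PKR knockout against 5xFAD EGFP and 0 for circRNA against wild type. More genes were tested without the filter, and 1899, 0 and 3568 of them were called. With pseudocount 0.1 the count of members called was 0 for PKR knockout against 5xFAD EGFP, and 0 of all genes were called in it. With quantile normalization the count of members called was 2 for 5xFAD EGFP against wild type, 0 for PKR knockout against 5xFAD EGFP, 3 for circRNA against wild type, 8 for PKR knockout against wild type and 3 for circRNA against PKR knockout. This normalization called 1967, 0, 3163, 3878 and 511 of all genes in the same comparisons. With rescaling to the same sum the count of members called was 3 for 5xFAD EGFP against wild type, 0 for PKR knockout against 5xFAD EGFP, 7 for circRNA against wild type and 2 for circRNA against PKR knockout. Rescaled libraries gave 3709, 0, 5676 and 683 calls over all genes. With no trend the count of members called was 2 for circRNA against wild type, beside 2785 of all genes. When 1 library was left out the count ranged from 0 to 2 for 5xFAD EGFP against wild type, from 0 to 1 for circRNA against wild type, from 2 to 8 for PKR knockout against wild type, from 0 to 0 for circRNA against 5xFAD EGFP, from 0 to 0 for PKR knockout against 5xFAD EGFP and from 1 to 1 for circRNA against PKR knockout.

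Of 600 values of single members under the alternatives, 491 kept their direction and side of the threshold, 24 lost a call, 51 gained one and 34 turned direction, and the cause was not tested. With library weights the log2 difference was -0.13 for Abi3 in 5xFAD EGFP against wild type, 0.072 for Fermt2 in circRNA against 5xFAD EGFP, 0.049 for Clu, -0.042 for Abca7 and 0.044 for Fermt2 in circRNA against wild type. With the cell type covariate the log2 difference was -0.050 for Abi3 in 5xFAD EGFP against wild type, 0.0032 for Fermt2 in circRNA against 5xFAD EGFP, 0.50 for Clu in PKR knockout against 5xFAD EGFP, -0.016 for Clu in circRNA against PKR knockout. With median-ratio scaling the log2 difference was -0.0046 for Abca7 and -0.015 for Ptk2b in circRNA against 5xFAD EGFP, -0.025 for Sorl1 and -0.016 for Abca7 in circRNA against wild type, 0.010 for Bin1 in PKR knockout against wild type, -0.0041 for Picalm and -0.037 for Cd2ap in circRNA against PKR knockout. With quantile normalization the log2 difference was -0.18 for Abi3 in 5xFAD EGFP against wild type, -0.0027 for Abca7 and -0.017 for Ptk2b in circRNA against 5xFAD EGFP, -0.078 for Sorl1 and -0.032 for Abca7 in circRNA against wild type, -0.034 for Abi3 in PKR knockout against wild type, -0.0084 for Cd2ap in circRNA against PKR knockout. With rescaling to the same sum the log2 difference was -0.16 for Abi3 in 5xFAD EGFP against wild type, -0.017 for Abca7 and -0.029 for Ptk2b in circRNA against 5xFAD EGFP, -0.23 for Sorl1 and -0.21 for Abca7 in circRNA against wild type. Of these, Sorl1 and Abca7 in circRNA against wild type passed the threshold after rescaling (limma adjusted p = 0.00755 and 0.0254).

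Leaving out 1 library turned the direction of 18 uncalled values, with ranges of -0.21 to 0.12 for Picalm, -0.093 to 0.0052 for Abca7, -0.18 to 0.030 for Rin3, -0.15 to 0.15 for Abi3, -0.66 to 0.039 for Fermt2 and -0.21 to 0.0038 for Sorl1 in 5xFAD EGFP against wild type, -0.085 to 0.074 for Picalm, -0.078 to 0.054 for Rin3, -0.019 to 0.18 for Ptk2b, -0.22 to 0.10 for Fermt2 and -0.047 to 0.0022 for Bin1 in circRNA against 5xFAD EGFP, -0.39 to 0.29 for Clu in PKR knockout against 5xFAD EGFP, -0.21 to 0.11 for Picalm, -0.19 to 0.016 for Rin3, -0.21 to 0.090 for Abi3 and -0.0092 to 0.089 for Abca7 in circRNA against wild type, -0.14 to 0.050 for Bin1 and -0.31 to 0.018 for Picalm in PKR knockout against wild type. None of the reversed values passed the threshold.

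Same-numbered libraries deviated together on average in each of the 6 pairs of groups (mean r from 0.022 to 0.33), but not in every pair of libraries: r was -0.42 to 0.69 between wild type and circRNA, -0.18 to 0.58 between wild type and PKR knockout and 0.036 to 0.55 between circRNA and PKR knockout. The numbers were therefore not taken to pair them, and treating them as a block left 0 members called for PKR knockout against 5xFAD EGFP and 0 members called for circRNA against wild type. The block called 22 and 2678 of all genes in these comparisons. Under the block Abi3 was -0.042 in 5xFAD EGFP against wild type, Bin1 was 0.045 in circRNA against 5xFAD EGFP, Picalm was 0.076 in circRNA against 5xFAD EGFP, Abi3 was 0.022 in circRNA against 5xFAD EGFP, Rin3 was 0.055 in circRNA against 5xFAD EGFP and Bin1 was 0.010 in PKR knockout against wild type.

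Over all genes, limma called 1514 for 5xFAD EGFP against wild type, against 3709 after rescaling to the same sum, 509 with the pair of groups alone and 2545 with the covariate. It called 9 for PKR knockout against 5xFAD EGFP, against 0 with pseudocount 0.1, no filter, rescaling or quantile normalization, 46 with median-ratio scaling, 577 with the pair alone, 822 with library weights and 22 with the replicate block. It called 2796 for circRNA against wild type, against 5676 after rescaling and 1725 with the pair alone, 3997 for PKR knockout against wild type, against 6595 after rescaling, and 670 for circRNA against PKR knockout, against 3161 with library weights and 1344 with the covariate. The share of called genes that were higher was 54.6%, 68.8% and 47.5% in the 3 comparisons with wild type and 19.1%, 17.5% and 17.8% after rescaling. For circRNA against wild type it was 54.3% with median-ratio scaling and 51.2% with quantile normalization. For circRNA against PKR knockout it was 69.1%, against 49.6% after rescaling, 27.6% with median-ratio scaling and 32.1% with quantile normalization, and for PKR knockout against 5xFAD EGFP it went from 9 of 9 to 89.1% with median-ratio scaling.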
